A study of Mus musculus with 4 samples.

Results

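The BAF chromatin remodelling complex and the enzymes that write, read and erase histone marks were described in mouse cerebellar tumors of the genotype Chd7-het. They were taken as the genes whose symbols begin with or equal a fixed set of names (among them Smarc, Arid1 to Arid5, Kmt, Mll, Kdm1 to Kdm8, Setd, Hdac, Ezh1, Ezh2, Eed, Suz12, Jarid2, Brd, Ing, Ep300, Crebbp and Kat2 to Kat8), measured by a probe set that the array's annotation gives to 1 gene alone, with Kdm5d left out. This gave 227 of the 29304 probe sets on the table and 96 of the 13320 genes with such a probe set. Total RNA of 4 tumors, numbered 1, 2, 4 and 5 in the sample titles, was read on Affymetrix Mouse Genome 430 2.0 arrays, 1 array per tumor. All 4 tumors carried the same genotype on a mixed CD1xC57BL/6 background, and the labels give no treatment, age or sex. There was a single group, so each tumor was set against the other 3, and the tumors were ordered gene by gene.

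The name Chd7-het stands in the sample titles without further detail. Chd7 itself encodes an ATP-driven remodeller of another family than BAF, and it read 8.77, 8.66, 8.48 and 8.60 log2 units in tumors 1, 2, 4 and 5, within a range of 0.29. That signal cannot tell the alleles apart and checks nothing about the genotype. Values are log2 signals of the MAS5 method, and probe sets differ in how brightly they bind, so a signal is compared between tumors and never between genes. The floor, taken as the limit of a usable signal, lay at 5.12 log2 units (34.8 on the linear scale), the median over arrays of the 40th percentile. On each array, 59.1% to 61.3% of the probe sets exceeded it. In a piece of tissue, fewer cells of a type and less RNA per cell cannot be told apart.

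Histone tails carry marks that other proteins read. Methylation of lysine 4 on histone H3, set by the KMT2 and SETD1 enzymes, is known from active promoters and enhancers, and methylation of lysine 27, set by Polycomb repressive complex 2 (PRC2), from silent genes. Demethylases of the KDM families take these marks off, acetyltransferases such as p300 and CBP loosen chromatin, and histone deacetylases reverse them. BAF slides and evicts nucleosomes with the ATPase Brg1 or Brm. In the developing brain its subunits are exchanged as progenitors become neurons, and in human medulloblastoma several genes of these classes, among them SMARCA4, KMT2D and KDM6A, are known to be mutated. The arrays measured transcript levels only.

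Nearly all of these genes gave a usable signal. Of the 96 members, 87 had a mean signal at or above 5.87 log2 units, the median over all probe sets, where 8498 of all 13320 genes did. All 87 lay above the floor in all 4 tumors, which a filter set above the floor makes likely from the start. These 87 were tested among 8498 genes, each through its brightest probe set. The 9 members under the filter were Arid5a, Hdac4, Hdac7, Hdac8, Hdac10, Hdac11, Kdm4b, Kdm8 and Setd4. Arid5a, an RNA-binding ARID protein, read 3.80, 4.10, 4.21 and 4.39 in tumors 1, 2, 4 and 5, below the floor throughout. Hdac7, a class IIa deacetylase known from endothelium and thymocytes, read 4.61, 4.68, 4.66 and 4.59, also below the floor throughout.

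The levels were close to each other in the 4 tumors. The median SD over tumors was 0.16 log2 units among the 87 members and 0.17 over all genes tested. In 74 of the 87 members (85.1%) the highest and the lowest tumor lay less than 1.5-fold apart, and over all genes tested the share was 77.7%. The smallest SD was that of Kdm2b, an H3K36 demethylase that also brings Polycomb to CpG islands, with 9.96, 9.91, 9.91 and 9.93 in tumors 1, 2, 4 and 5. By the brightest probe set, a range of at least 2-fold was reached by 3 members (3.45%), against 438 of all genes tested (5.15%). These 3 were Mllt11, Smarcd3 and Kdm6a, and the map of all members by tumor shows them as the darkest rows. A fainter probe set of Brd8 past the filter, 1452350_at, also spanned over 2-fold, with 6.29, 7.38, 6.31 and 6.26 in tumors 1, 2, 4 and 5. Fainter probe sets of Jarid2, Smarcb1 and Kdm5c given below did so too.

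**Figure D1:**
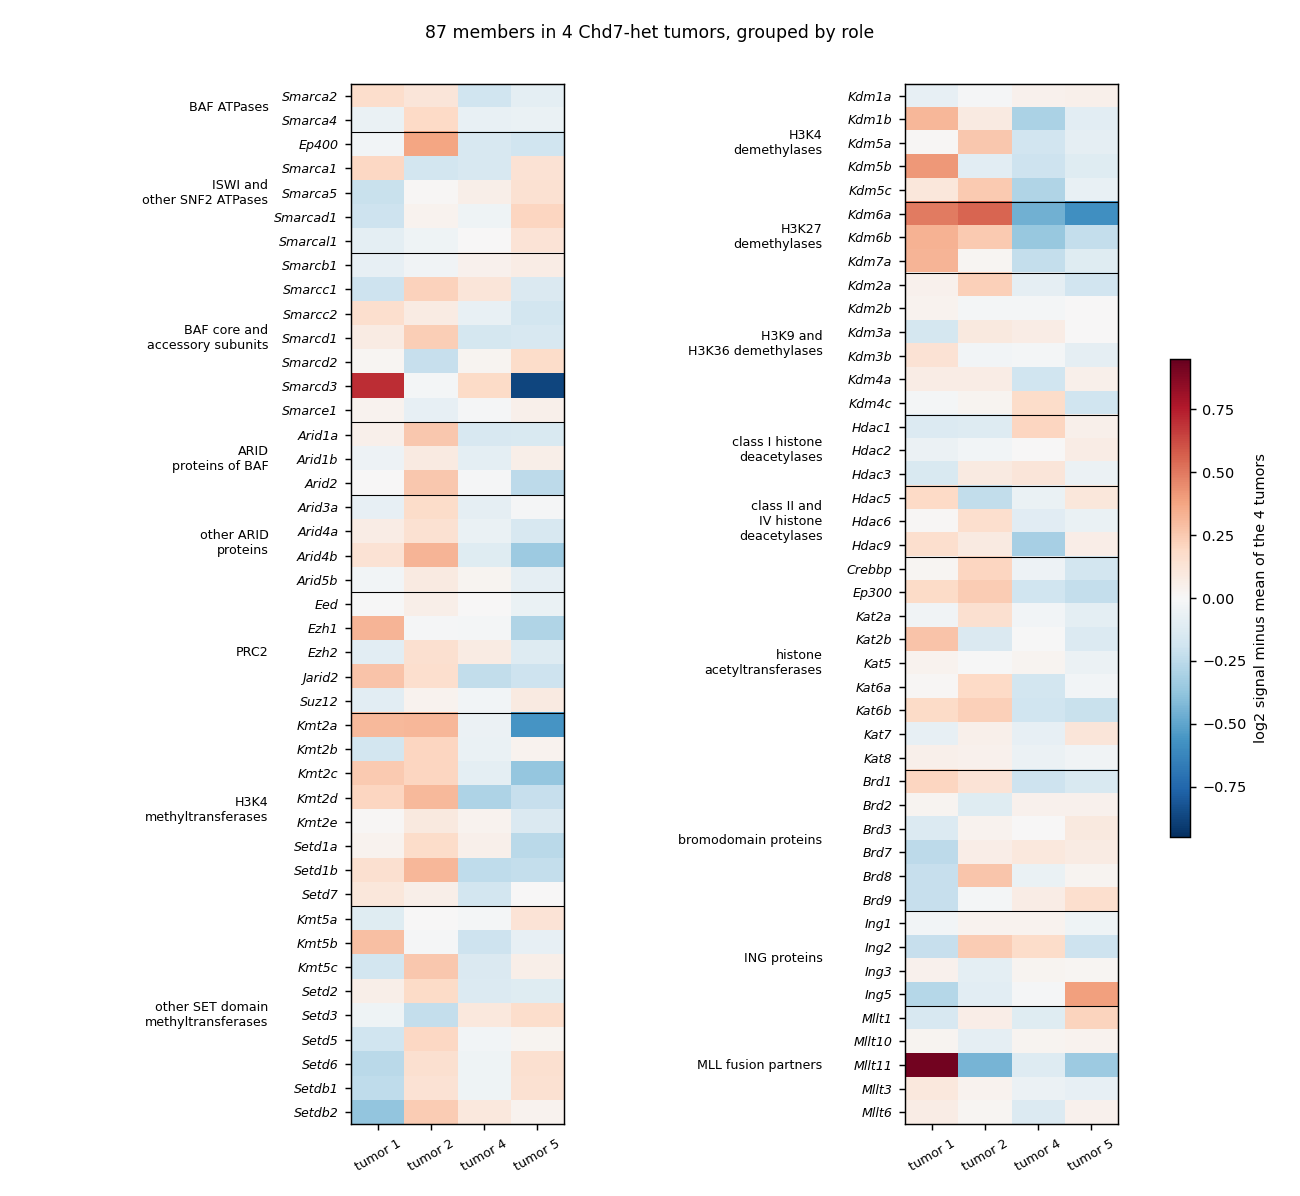
The color of each cell gives the log2 signal of 1 of the 87 tested members (rows, in groups by role) in 1 tumor (columns), less that gene's mean over the 4 tumors. Mllt11 stands out in tumor 1 (10.04), Smarcd3 in tumors 1 and 5 (7.44 and 5.87), and Kdm6a is higher in tumors 1 and 2 (8.62 and 8.68) than in tumors 4 and 5 (7.67 and 7.55).

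Seen over all 87 members, tumor 2 was most often the highest and tumor 4 seldom so. Tumor 2 lay above each of the other 3 in 38 members (43.7%), where 26.4% of all genes did. Tumor 4 did so in 4 members (4.6%), where 19.1% of all genes did. Tumors 1 and 5 were highest in 25 and 20 members, and 23.4% and 30.9% of all genes had their highest signal there. Below each of the other 3, tumors 1, 2, 4 and 5 lay in 25, 11, 25 and 25 members, where 31.3%, 29.1%, 17.3% and 22.1% of all genes did. Tumor 2 was thus the lowest in the fewest members.

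The pair of tumors with the 2 highest signals was counted for each gene. Tumors 1 and 2 were that pair in 35 of the 87 members (40.2%), where 19.6% of all genes tested had this pair. Tumors 4 and 5 were the pair in 12 members (13.8%), where 28.1% of all genes did. The other pairs held 6 to 15 members each, where tumors 1 and 4 had 9.57%, tumors 1 and 5 15.1%, tumors 2 and 4 13.9% and tumors 2 and 5 13.8% of all genes. The share of tumors 1 and 2 was 3 of 3 among the H3K27 demethylases, 4 of 5 among the H3K4 demethylases and 5 of 9 among the acetyltransferases. It was 0 of 3 among the class I deacetylases, 0 of 4 among the ING proteins and 1 of 6 among the bromodomain proteins. In the lists of partner subunits and other enzymes outside the rule it was 14 of 73 (19.2%). No p is given, since these genes were listed with the data known and the 2 pairs of tumors are no groups of the study.

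Both ATPases of BAF were present in every tumor. Smarca4 (Brg1) read 9.44, 9.70, 9.44 and 9.45 in tumors 1, 2, 4 and 5, with tumor 2 above a tight group of the other 3. Its other probe set past the filter, 1426805_at, was again highest in tumor 2, at 7.66, against 7.25, 7.30 and 7.18 in tumors 1, 4 and 5. Smarca2 (Brm), the alternative ATPase, read 8.70, 8.65, 8.35 and 8.45, highest in tumors 1 and 2. Neither gene passed the test in any tumor.

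The core subunits differed little. Smarce1, the DNA-bending subunit BAF57, read 9.77, 9.66, 9.73 and 9.79 in tumors 1, 2, 4 and 5, and Smarcb1, the core subunit SNF5 whose loss defines rhabdoid tumors, read 8.67, 8.71, 8.79 and 8.82. A further probe set of Smarcb1, 1435856_x_at, behaved otherwise, with 8.44, 8.34, 7.38 and 7.69, so the flat level of this gene holds for its brightest probe set. Smarcc1 (BAF155) read 9.02, 9.44, 9.33 and 9.08, and all 3 of its probe sets past the filter were lowest in tumor 1 and highest in tumor 2. Smarcc2 (BAF170), its paralog, read 8.14, 8.06, 7.91 and 7.81. The paralogs thus had their lowest signal in different tumors, Smarcc1 in tumor 1 and Smarcc2 in tumor 5.

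The ARID subunits, which set the complex type, were also detected throughout. Arid1a, of canonical BAF and often mutated in human cancers, read 8.87, 9.08, 8.67 and 8.68 in tumors 1, 2, 4 and 5. Its paralog Arid1b read 8.28, 8.42, 8.23 and 8.38. Arid2, of the PBAF form, read 9.60, 9.85, 9.59 and 9.35. All 3 were highest in tumor 2. Brd7, the bromodomain subunit of PBAF, was lowest in tumor 1, at 8.51, against 8.82, 8.85 and 8.83 in tumors 2, 4 and 5. Brd9, of non-canonical BAF, read 7.86, 8.06, 8.15 and 8.24, also lowest in tumor 1.

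Of the Smarcd family, whose 3 members take the same place in the complex (BAF60), Smarcd3 varied most among all 87 members, with an SD of 0.65 log2 units. Smarcd3 (BAF60C), known from heart and neurons, has 1 probe set here, and it read 7.44, 6.73, 6.92 and 5.87 in tumors 1, 2, 4 and 5. It was thus highest in tumor 1 and lowest in tumor 5. In tumor 5 it lay at 5.87, against 7.03 ± 0.37 in the other 3 tumors (SD, n = 3), 2.23-fold lower, and in tumor 1 at 7.44, against 6.51 ± 0.56 (SD, n = 3), 1.91-fold higher. Neither difference passed limma's moderated test (adjusted p = 0.957 and 0.365). Smarcd1 (BAF60A) read 6.21, 6.37, 5.97 and 5.98 and Smarcd2 (BAF60B) 8.74, 8.50, 8.74 and 8.90 in the same tumors, neither with the pattern of Smarcd3.

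The subunits that are exchanged on leaving the cell cycle were looked up beside the members. Ss18l1 (CREST), the neuronal counterpart of Ss18, read 7.43 in tumor 1, against 6.85, 6.67 and 6.59 in tumors 2, 4 and 5, a difference of 0.72 log2 units (adjusted p = 0.18, limma). Actl6b (BAF53B), the neuronal actin-like subunit, was under the filter and read 5.88, 4.92, 5.29 and 4.74, above the floor in tumors 1 and 4. Dpf3 read 4.69, 3.34, 3.10 and 3.32, below the floor in all 4 tumors. Dpf1 (BAF45B), also a subunit of neurons and under the filter, read 5.27, 5.57, 5.76 and 5.69, above the floor in all 4 tumors and lowest in tumor 1. Ss18l1, Actl6b and Dpf3 were thus highest in tumor 1, and Dpf1 was not.

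The subunits known from progenitors or from many cell types were mixed in their order. Actl6a (BAF53A) read 9.41, 9.69, 9.59 and 9.53 in tumors 1, 2, 4 and 5, lowest in tumor 1. Phf10 (BAF45A), of progenitor PBAF, read 8.63, 8.79, 8.89 and 9.14, also lowest in tumor 1. Dpf2 (BAF45D) was highest in tumor 1, with 8.67, 8.59, 8.58 and 8.47, and Ss18 read 9.92, 9.86, 9.94 and 10.16, lowest in tumor 2. Of the 11 tested BAF subunits with names outside the rule, 3 were higher and 8 lower in tumor 1 than the mean of the other 3 tumors, with a median difference of -0.11 log2 units, and 0 passed the test. In tumor 1, 56.3% of all genes tested lay lower, and their median difference was -0.04.

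Markers of other cells moved with these signals. In tumor 1, all 5 tested markers of Purkinje cells and inhibitory neurons passed the test as higher, with a summed linear signal of 3310, against 269 to 496 in the other tumors. Of the 4 tested markers of mature neurons 3 passed as higher (summed signal 3664, against 1174 to 1373), and of the 4 tested markers of oligodendrocytes 3 passed as higher (summed signal 4786, against 700.2 to 1568). All 9 tested markers of dividing cells were lower in tumor 1, and 0 passed (summed signal 7723, against 10569 to 10889). Of the 8 tested markers of astrocytes and Bergmann glia 7 were higher and 1 lower, and 2 passed as higher (summed signal 4716, against 3629 to 3926). The lower one was Gfap, at 6.55 in tumor 1, against 7.52, 7.69 and 7.40 in tumors 2, 4 and 5. Of the 9 tested markers of microglia and macrophages 1 passed as lower (summed signal 3234, against 4189 to 5857). All 3 tested markers of endothelial and mural cells were highest in tumor 1, and 0 passed (summed signal 944, against 425 to 615). Among the Purkinje markers Calb1 and Pcp2 lay below the floor in tumors 2 and 5. Calb1, Pcp4 and Gad1 averaged 4.83, 5.48 and 5.46 in tumors 2, 4 and 5, under the filter's 5.87. The same held for the neuron markers Chn2 (5.28) and Syt1 (5.41), for Cldn11 of oligodendrocytes (5.56) and for Gdf10 of glia (5.63). Tumor 1 alone brought these markers past the filter, so the filter itself favored their passing there as higher. The transporter Slc32a1 of inhibitory neurons was at 0 log2 units, the lowest value listed, in tumors 2 and 5. As a check of the cerebellar label, all 10 markers of granule cell progenitors lay past the filter. Since 8498 of all 13320 genes did so too, that check is weak. These markers were not uniform: in tumor 1, 5 were higher and 5 lower than the mean of the other 3 tumors. Their differences ran from 1.26 log2 units in Pax6 to -0.83 in Atoh1. The part of these other cells in the signals of Smarcd3, Ss18l1 and Actl6b was not tested.

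**Figure D2:**
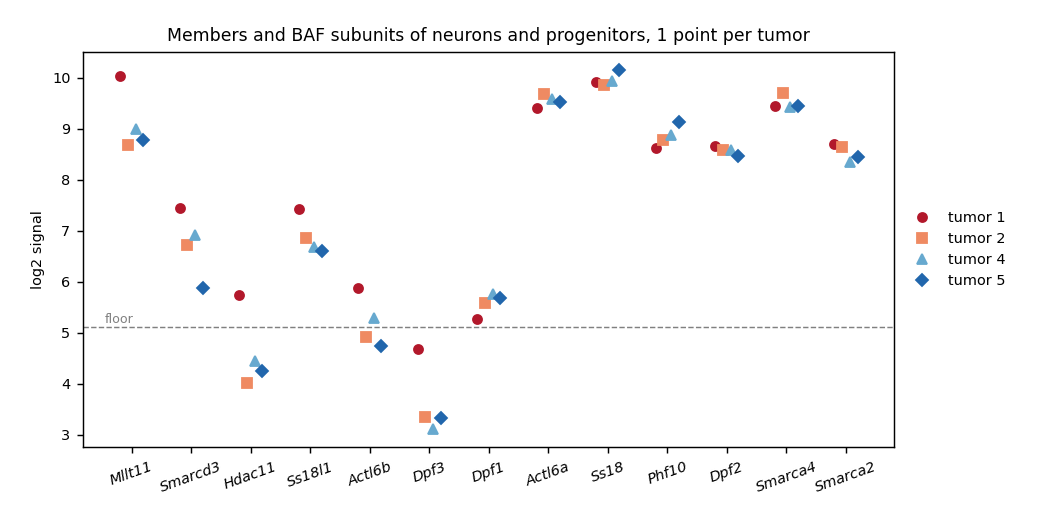
Each point gives the log2 signal of 1 tumor for members and for BAF subunits of neurons or of progenitors (horizontal axis), with the floor at 5.12 as a dashed line. Mllt11, Smarcd3, Hdac11, Ss18l1, Actl6b and Dpf3 are highest in tumor 1, as are Dpf2 and Smarca2 by little, while Dpf1, Actl6a and Phf10 are lowest there.

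Only Mllt11 passed the test among the 87 members with all 4 tumors in the fit, in tumor 1. The test was limma's moderated test of 1 tumor against the other 3, with Benjamini-Hochberg adjustment over 8498 genes, and a gene passed at an adjusted p under 0.05 and a difference of at least 2-fold. With tumor 2, 4 or 5 left out, 208, 177 and 204 genes passed in tumor 1, and 2, 1 and 1 members. The test assumes that the lone tumor varies like the other 3, and the labels do not say that the tumors came from separate mice. Over all genes, 1.29% passed in tumor 1 (110 genes), 1.05% as higher and 0.247% as lower. In tumors 2, 4 and 5, 0% of all genes and 0 members passed, while at an unadjusted p under 0.05 there were 496, 47 and 306 genes and, of the members, 1, 0 and 4.

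Mllt11 encodes a small protein known from leukemias as a fusion partner of the H3K4 methyltransferase MLL1, and it is expressed in developing neurons. It is no histone-modifying enzyme and entered through its symbol. It read 10.04 in tumor 1, against 8.69, 9.004 and 8.78 in tumors 2, 4 and 5. Tumor 1 stood clear of the other 3, whose mean was 8.82 ± 0.16 (SD, n = 3), by 1.22 log2 units (SE 0.17, 2.33-fold, adjusted p = 0.0143, limma). The adjusted p was 0.0503 with the floor at the 50th percentile and 0.141 with no filter on the mean. The markers of neurons named above were higher in the same tumor, and their part in this difference was not tested. The other MLL fusion partners by name lay close together, among them Mllt3 (AF9), a reader of acetylated histones in the super elongation complex, with 8.02, 7.96, 7.87 and 7.85 in tumors 1, 2, 4 and 5.

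**Figure D3:**
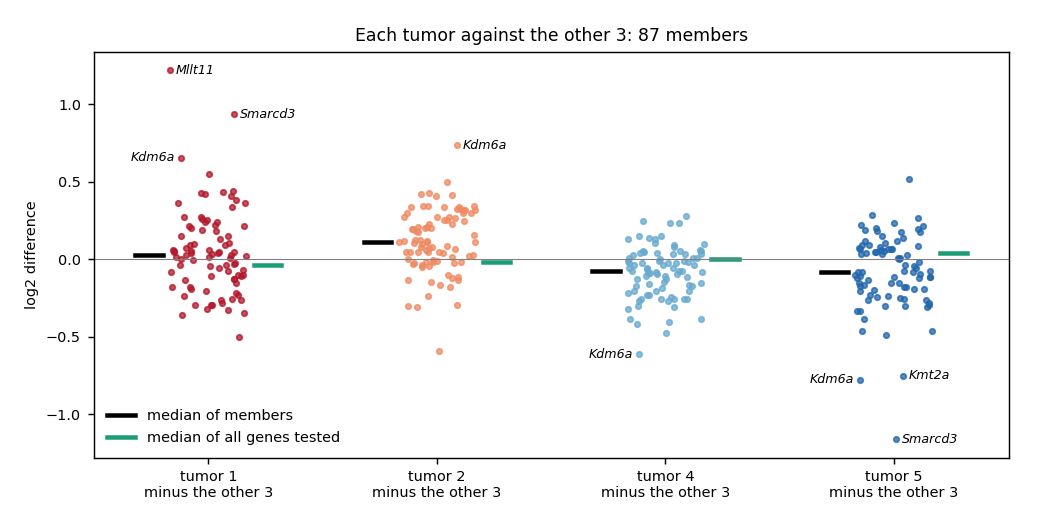
Each point is 1 of the 87 members, placed by its log2 signal in the named tumor minus the mean of the other 3 tumors, with the medians of the members (black) and of all genes tested (green) beside it. Mllt11 in tumor 1 (1.22) lies highest and Smarcd3 in tumor 5 (-1.16) lowest, and the members' median is highest in tumor 2 (0.11).

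The whole list lay slightly apart from the other genes in the direction of its differences. In tumor 2 the members' median difference from the other 3 tumors was 0.11 log2 units, with 63 higher and 24 lower, against a median of -0.02 over all genes tested. In tumor 4 it was -0.07, with 28 higher and 59 lower, against 0.0037 over all genes. Of the 9 tested markers of microglia and macrophages 8 were highest in tumor 4 (summed signal 5857, against 3234 to 4271), and all 3 of endothelial and mural cells were lowest there (425, against 604 to 944). None of these markers passed in tumor 4, and their part in the members' levels was not tested. The medians in tumors 1 and 5 were 0.03 and -0.08, against -0.04 and 0.04 over all genes. A difference of at least 1.5-fold was seen in 3, 2, 1 and 3 members in tumors 1, 2, 4 and 5, where 7.46%, 4.42%, 1.6% and 4.2% of all genes reached it. As shares of the 87 members these counts are 3.45%, 2.30%, 1.15% and 3.45%, each under that of all genes.

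Set against each other 1 by 1, the tumors also differed in few members. A difference of at least 1.5-fold was seen in 3 members between tumors 1 and 2, 5 between tumors 1 and 4, and 7 between tumors 1 and 5, where 9.83%, 8.45% and 10.6% of all genes reached it. It was seen in 3 members between tumors 2 and 4, 4 between tumors 2 and 5 and 1 between tumors 4 and 5, where 4.52%, 8.97% and 2.97% of all genes did. Tumors 4 and 5 were the closest pair, with a median absolute difference of 0.10 log2 units over the members. They were also the closest pair over all genes tested, at 0.12.

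PRC2, which writes H3K27 methylation, varied little, with a median SD of 0.13 log2 units over its 5 tested members. Its catalytic subunit Ezh2, known from dividing progenitors, read 10.11, 10.36, 10.29 and 10.09 in tumors 1, 2, 4 and 5. The core subunits Eed (9.09, 9.15, 9.09 and 9.03) and Suz12 (8.85, 8.98, 8.92 and 9.03) spanned still less. Ezh1, the form known from resting cells, read 6.20 in tumor 1, against 5.87, 5.87 and 5.59 in tumors 2, 4 and 5, with all but tumor 1 at or under the filter's level of 5.87. Jarid2, an accessory subunit that targets PRC2, was highest in tumors 1 and 2 by 3 probe sets. Its brightest read 8.61, 8.49, 8.11 and 8.14, and 1422698_s_at read 8.64, 8.81, 7.97 and 7.54. None of the 5 passed in any tumor.

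Among the H3K4 methyltransferases, tumors 1 and 2 had the 2 highest signals in 5 of the 8 tested genes, and 0 passed the test. Kmt2d (MLL4), which marks enhancers, read 7.35, 7.46, 6.86 and 6.93 in tumors 1, 2, 4 and 5. Kmt2c (MLL3), its paralog, read 8.84, 8.79, 8.49 and 8.22, and Setd1b, of a promoter-bound complex, read 7.54, 7.71, 7.15 and 7.16. By the brightest probe set of each of these genes, the lower of tumors 1 and 2 lay above the higher of tumors 4 and 5.

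Kmt2a (MLL1) was lowest in tumor 5, at 6.15, against 7.02, 7.02 and 6.66 in tumors 1, 2 and 4, a difference of -0.75 log2 units from their mean (adjusted p = 0.957, limma). Kmt2b (MLL2), its paralog, did not follow that order, with 7.11, 7.49, 7.22 and 7.32, lowest in tumor 1. Kmt2e, which binds H3K4 methylation and has no known methyltransferase activity of its own, read 9.88, 9.97, 9.90 and 9.74. Further subunits of COMPASS complexes, not all of them common to every complex, were given by a list of 9 tested genes. Tumors 1 and 2 were the highest pair in 2 of these. In tumor 1, 8 of the 9 were lower than the mean of the other 3 tumors (median -0.15), where 56.3% of all genes were (median -0.04). None of the 9 passed.

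Among the demethylases, all 3 of H3K27 had their 2 highest signals in tumors 1 and 2. Kdm6a (UTX), an X-linked gene that removes H3K27 methylation and sits in the MLL3 and MLL4 complexes, read 8.62, 8.68, 7.67 and 7.55 in tumors 1, 2, 4 and 5. Tumors 1 and 2 lay together above tumors 4 and 5, and the gap of 0.95 between the lower of tumors 1 and 2 and the higher of tumors 4 and 5 was ranked 9 among 8498 genes. Its other probe set past the filter, 1427672_a_at, read 7.20, 7.09, 6.62 and 6.22, in the same 2 levels. In the test of 1 tumor against 3 the gene did not pass, with the other 3 then holding both levels (adjusted p between 0.609 and 1.00, limma). Without tumor 2 the difference of Kdm6a in tumor 1 was 1.01, and without tumor 1 its difference in tumor 2 was 1.07. Each of these fits leaves out the only other tumor at the same level, so the wider difference follows from that choice.

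Kdm6b (JMJD3), the autosomal paralog induced in differentiation, was split in the same way, with 8.31, 8.23, 7.62 and 7.75 in tumors 1, 2, 4 and 5. Its other probe set past the filter, 1447612_x_at, read 6.50, 6.65, 6.06 and 6.11. Kdm7a, a demethylase of H3K9 and H3K27, read 8.16, 7.85, 7.61 and 7.72. None of these 3 passed the test with all 4 tumors in the fit.

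The sex-linked transcripts fell into the same 2 levels as Kdm6a. Xist, the RNA of the inactive X chromosome, read 10.33, 10.68, 3.15 and 3.54 by its brightest probe set in tumors 1, 2, 4 and 5, and so lay below the floor in tumors 4 and 5. The Y-linked Eif2s3y read 0, 0, 8.02 and 7.43, and the Y-linked Uty, a relative of Kdm6a, read 1.72, 1.14, 6.60 and 6.48, both above the floor in tumors 4 and 5 only. The labels give no sex, and the tumors were not grouped by these signals. Their part in the level of any member was not tested.

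Of the other members on the X chromosome, Kdm5c (SMCX), an H3K4 demethylase, had 3 probe sets past the filter, each highest in tumors 1 and 2. The brightest read 7.54, 7.67, 7.14 and 7.36, and 1435348_at read 6.75, 6.95, 5.87 and 6.06 in tumors 1, 2, 4 and 5. Hdac6, the cytoplasmic deacetylase of tubulin, read 7.02, 7.16, 6.89 and 6.94. Smarca1, an ISWI ATPase, was split otherwise, with 6.82, 6.44, 6.47 and 6.75, highest in tumors 1 and 5. Hdac8 was under the filter, with 5.90, 5.93, 5.66 and 5.66. The X chromosome thus held members with that order and 1 without it.

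**Figure D4:**
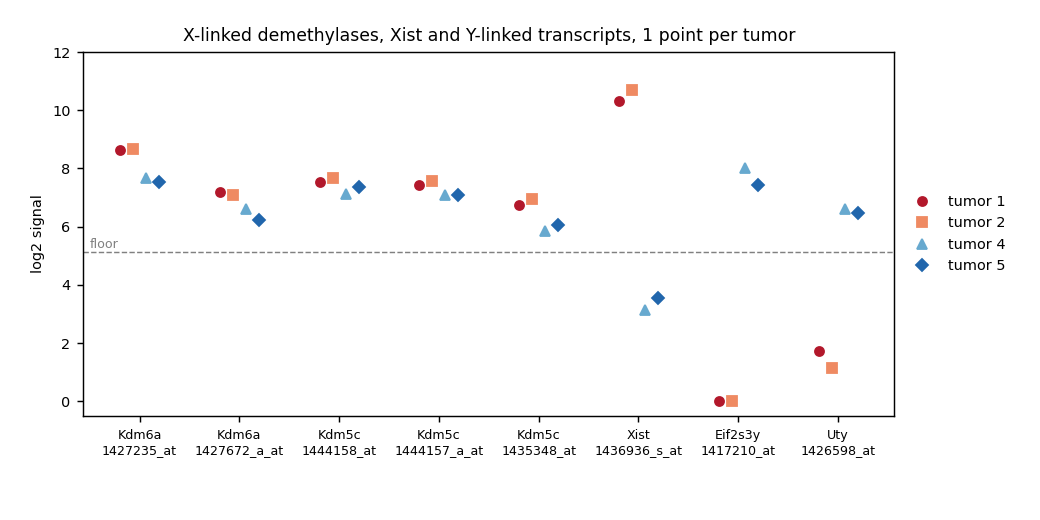
Each point gives the log2 signal of 1 tumor for the probe sets of Kdm6a and Kdm5c past the filter and for Xist, Eif2s3y and Uty (horizontal axis), with the floor at 5.12 as a dashed line. Kdm6a and Xist are higher in tumors 1 and 2, Eif2s3y and Uty in tumors 4 and 5, and the Kdm5c probe sets are separated by less.

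The autosomal H3K4 demethylases differed from each other. Kdm1a (LSD1), a flavin-dependent demethylase of the CoREST complex, read 10.46, 10.52, 10.57 and 10.59 in tumors 1, 2, 4 and 5. Its paralog Kdm1b (LSD2) read 8.08, 7.85, 7.46 and 7.67. Kdm5b (JARID1B) was highest in tumor 1, at 7.55, against 7.03, 6.93 and 7.01 in tumors 2, 4 and 5. That difference of 0.55 log2 units did not pass (adjusted p = 0.272, limma). The demethylases of H3K9 and H3K36 were steady, with SDs from 0.025 in Kdm2b to 0.18 in Kdm2a.

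The acetyltransferases p300 and CBP, paralogs that acetylate histones at enhancers, had the same order of tumors, with a wider gap between the pairs in Ep300. Ep300 (p300) read 7.54, 7.59, 7.16 and 7.12 in tumors 1, 2, 4 and 5, in 2 levels. Crebbp (CBP) read 8.97, 9.16, 8.91 and 8.78, with tumors 1 and 4 close together. Kat6b (MORF), of the MOZ and MORF complexes, read 8.18, 8.23, 7.81 and 7.79, and its paralog Kat6a (MOZ) 8.35, 8.53, 8.17 and 8.32. Kat2b (PCAF) was highest in tumor 1, at 8.65, against 8.24, 8.37 and 8.25 in tumors 2, 4 and 5. Kat5 (TIP60) and Kat8 (MOF) had SDs of 0.04 and 0.05. Ep400, the ATPase of the TIP60 complex, was highest in tumor 2, at 8.27, against 7.87, 7.75 and 7.71 in tumors 1, 4 and 5 (difference 0.50, adjusted p = 0.795, limma).

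The 3 tested class I deacetylases had no member with the order of Kdm6a. Hdac8, of the same class but under the filter and not tested, was highest in tumors 1 and 2 (above). Hdac2, known from progenitors and neurons, read 10.72, 10.76, 10.79 and 10.85 in tumors 1, 2, 4 and 5. Hdac1, its paralog, read 8.95, 8.96, 9.29 and 9.13, and Hdac3, of the NCoR and SMRT complexes, 8.70, 8.93, 8.96 and 8.79. All 3 were lowest in tumor 1. Of 16 tested subunits of the NuRD, Sin3, CoREST and NCoR complexes, 14 were lower in tumor 1 than the mean of the other 3 tumors and 2 higher, with a median of -0.23 log2 units, and 0 passed. The share of lower genes among all tested was 56.3%, and the median over them was -0.04. The dividing-cell markers were also lower in tumor 1 (above), and their part was not tested.

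The class II and IV deacetylases had the most members under the filter. Hdac11, the class IV enzyme known from oligodendrocytes and neurons, read 5.74 in tumor 1, against 4.01, 4.45 and 4.26 in tumors 2, 4 and 5. It lay above the floor in tumor 1 only, and its other probe set, with 4.51, 2.96, 2.93 and 2.49, was below the floor in all 4 tumors. It was not tested, and the markers of oligodendrocytes and neurons were highest in the same tumor. Hdac5, a class IIa enzyme, read 7.67, 7.25, 7.42 and 7.59 in tumors 1, 2, 4 and 5. Hdac9, of the same class, read 8.30, 8.22, 7.82 and 8.20, lowest in tumor 4.

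Among the remaining SET domain enzymes, 6 of 9 tested genes were lowest in tumor 1, where 31.3% of all genes were. Setdb2, an H3K9 methyltransferase, read 5.53 there, against 6.15, 6.01 and 5.94 in tumors 2, 4 and 5 (difference -0.50, adjusted p = 0.451, limma). Setdb1, which silences endogenous retroviruses through H3K9, read 7.14, against 7.51, 7.34 and 7.53. Kmt5b (SUV420H1), an H4K20 methyltransferase, went the other way, with 8.47 in tumor 1, against 8.17, 7.98 and 8.10. Setd2, which trimethylates H3K36, read 7.52, 7.65, 7.33 and 7.35 in tumors 1, 2, 4 and 5.

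Of the ING proteins, which read H3K4 methylation for acetyltransferase and deacetylase complexes, Ing5 was highest in tumor 5. It read 8.17 there, against 7.52, 7.69 and 7.77 in tumors 1, 2 and 4 (difference 0.51, adjusted p = 0.957, limma). Its other probe set past the filter, 1442094_at, was lowest in tumor 5, at 5.81, against 6.01, 5.94 and 6.04, so the direction rests on the brightest probe set. Ing1 (9.26, 9.33, 9.32 and 9.25) and Ing3 (8.98, 8.85, 8.97 and 8.96) stayed within a narrow range in tumors 1, 2, 4 and 5. Across all members, 40 had at least 2 probe sets past the filter. All of a member's probe sets lay on the same side of the other 3 tumors in 28, 32, 28 and 26 of them for tumors 1, 2, 4 and 5. The same count was not made over all genes, and probe sets can share a side by chance, so these counts do not grade the agreement.

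A margin between the pairs was set after these values were seen. In 9 members (10.3%) the lower of tumors 1 and 2 lay more than 0.3 log2 units above the higher of tumors 4 and 5, where 2.92% of all genes did. These were Kdm6a, Kdm6b, Kmt2d, Setd1b, Ep300, Kat6b, Kmt2a, Jarid2 and Kmt2c, with gaps from 0.95 to 0.30 by their brightest probe sets. The 2 probe sets of Setd1b past the filter did not lie on the same side of the other tumors in tumor 1, so its gap rests on the brightest. Just outside were Brd1, a scaffold of an acetyltransferase complex, with a gap of 0.28, and Arid4b, a subunit of the Sin3 complex, with 0.26. The gap of Arid4b rests on its brightest probe set. In tumors 1, 2, 4 and 5, its probe set 1460384_a_at read 6.92, 7.12, 6.66 and 6.92, and 1451847_s_at read 6.43, 6.67, 6.41 and 6.54. Of the 9, 4 write H3K4 methylation and 2 remove H3K27 methylation, from groups of 8 and 3 tested members. Kmt2c exceeded the margin only just, at 0.30016. Only Kdm6a among them lies on the X chromosome.

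The length of the gene moved with that order. The span of each gene on the chromosome was taken from RefSeq annotation (GRCm38.p6) and known for all 87 members and for 8482 of 8498 genes, and 43.7% of the members fell into the quartile of longest genes. Tumors 1 and 2 were the highest pair in 0 of 8, 4 of 14, 10 of 27 and 21 of 38 members from the shortest to the longest quartile. The background in the same quartiles was 9.34%, 14.2%, 19.6% and 35.1% of all genes. In the longest quartile the members' share was thus 55.3%, and in the third it was 37.0%. Of the 9 members with a gap above 0.3, 6 lay in the longest quartile. There 6.69% of all genes had such a gap, against 1.18% in the shortest quartile. The part of gene length in the members' order was not tested beyond these counts. As a measure of RNA integrity, the 3' over 5' control ratio of actin was 1.17, 1.15, 1.14 and 1.11 in tumors 1, 2, 4 and 5, highest in tumors 1 and 2. The ratio of Gapdh did not have that order, with 0.757, 0.740, 0.748 and 0.686. The share of probe sets above the floor (61.3%, 60.8%, 59.2% and 59.1%) and the median log2 signal of the array (5.96, 5.91, 5.83 and 5.84) were also highest in tumors 1 and 2. The part of these array measures in the members' order was not tested.

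**Figure D5:**
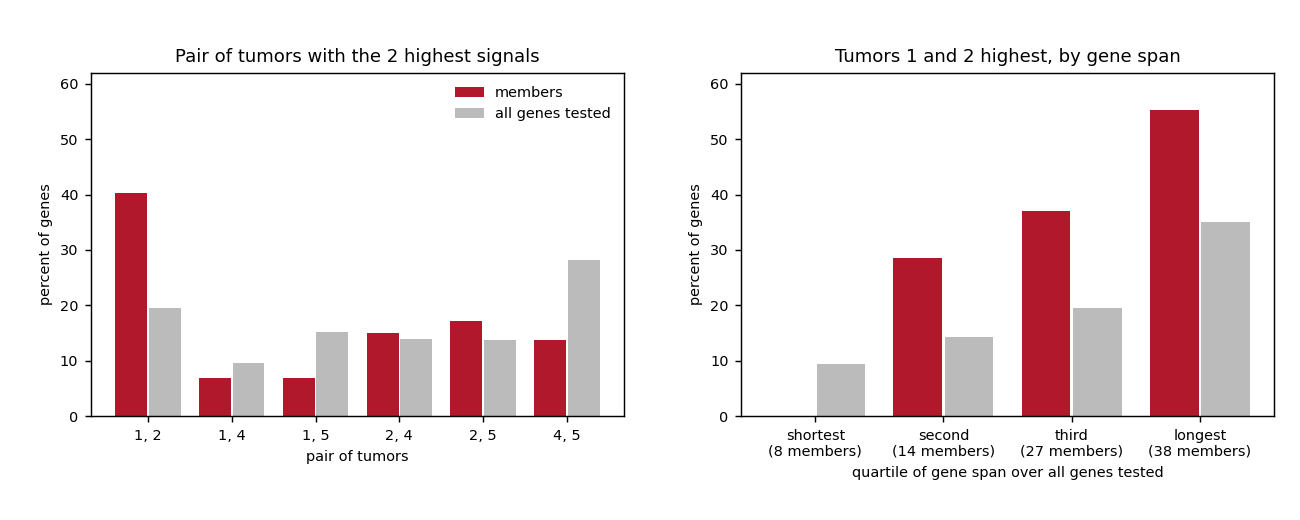
Bars give the percent of the 87 members (red) and of the 8498 genes tested (grey) whose 2 highest signals fell in the named pair of tumors (left), and the percent with tumors 1 and 2 as that pair in each quartile of gene span (right). Members exceed all genes for tumors 1 and 2 (40.2% against 19.6%), and both shares are largest among the longest genes (55.3% against 35.1%).

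The promoters of the members were compared by their letters. RefSeq windows from 250 bases before to 50 after a gene's start (GRCm38.p6) were matched by gene ID for 79 of the 96 members, with 111 windows. Their median GC content was 64.0%, against 52.7% over all 32851 windows, and the median ratio of observed to expected CpG was 0.861, against 0.384. That background holds 27025 genes, whether or not they gave a signal here, and the windows of the genes tested were not taken alone. These contrasts, and those of the short letters below, thus cannot be read as particular to the members. The GC box, GGGCGG on either strand, was found in 77 of the 111 windows (69.4%), against 35.7% of all windows. The CCAAT box (CCAAT) stood in 42.3% (37.4% of all), the ETS-type letters CCGGAAG in 13.5% (8.86%), the E2F-type letters TTTCCCGC in 4.50% (1.07%) and the E-box CAGCTG in 16.2% (16.3%), each on either strand. A match is a description of the letters and not a bound site.

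The windows of the 3 members with a range of at least 2-fold by their brightest probe set are shown, because the results on single members turn on them. They are at chrX:18162325-18162624 on the plus strand for Kdm6a, chr3:95228628-95228927 on the minus strand for Mllt11 and chr5:24601953-24602252 on the minus strand for Smarcd3, and capitals mark the GC boxes, with overlapping matches as 1 run.
Kdm6a: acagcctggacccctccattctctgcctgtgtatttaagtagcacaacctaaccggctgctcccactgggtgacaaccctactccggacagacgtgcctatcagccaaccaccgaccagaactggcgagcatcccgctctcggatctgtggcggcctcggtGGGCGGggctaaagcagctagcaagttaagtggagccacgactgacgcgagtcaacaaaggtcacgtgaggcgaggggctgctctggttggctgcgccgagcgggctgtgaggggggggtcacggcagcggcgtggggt
Mllt11: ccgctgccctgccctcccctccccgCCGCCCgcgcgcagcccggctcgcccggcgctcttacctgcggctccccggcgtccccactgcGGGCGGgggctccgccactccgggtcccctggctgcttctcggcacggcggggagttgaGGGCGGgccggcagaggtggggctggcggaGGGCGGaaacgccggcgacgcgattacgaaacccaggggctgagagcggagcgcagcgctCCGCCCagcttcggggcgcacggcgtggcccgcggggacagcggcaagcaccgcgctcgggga
Smarcd3: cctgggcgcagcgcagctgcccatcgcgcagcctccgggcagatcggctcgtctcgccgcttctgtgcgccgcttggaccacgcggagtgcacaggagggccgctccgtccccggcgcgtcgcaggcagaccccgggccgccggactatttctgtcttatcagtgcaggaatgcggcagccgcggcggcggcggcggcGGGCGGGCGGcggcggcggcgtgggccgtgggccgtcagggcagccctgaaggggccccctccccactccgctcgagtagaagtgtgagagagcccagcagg
The window of Kdm6a holds 1 GC box and has a GC content of 63.0%. That of Mllt11 holds 5, at 78.7% GC, and that of Smarcd3 holds 2 that overlap, at 74.7% GC. The CCAAT box is in none of the 3 windows, and the E-box is in that of Smarcd3 alone.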

How the data were processed

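The authors deposited log2 signals of 4 arrays. The submitters' processing notes name MAS5, without a version or target level, which stay unknown here. Taken out of the log, 100% of the signals were multiples of 0.1 (tolerance 0.0001), the lowest being 1. MAS5 scales each array on its own and subtracts a local background, so low signals are noisy, and it leaves signal-dependent differences between arrays. The number of arrays limits the precision. Probe sets were named from the platform annotation: 24679 had 1 gene symbol, 647 several and 3917 none, besides 61 control probe sets. A gene was read by its probe set of highest mean, if that mean reached the median over probe sets (58.5 on the linear scale). Signals under the floor were raised to it for the fit and left as deposited elsewhere. Each tumor was tested against the other 3 with limma 3.58.1 (lmFit, eBayes with a trend; R 4.3.3) and Benjamini-Hochberg adjustment over all genes, and the procedure was tested on simulated data. Members named were those that passed, the 6 of largest difference per tumor, the 6 of largest and smallest SD, those under the filter and those of the groups by role. Members and lists were chosen with earlier results of these data known. The alternatives were other floors and filters, quantile normalization, other choices of probe sets, eBayes without a trend and leaving out each tumor.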

Additional observations from a re-analysis of the deposited data

Results flagged for a closer look

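In 6 of the 96 members (6.25%) 1 tumor lay far from the other 3 by Dixon's criterion for 4 values, which chance meets in about 1 of 20 groups. Among all 8498 genes tested 5.30% met it, so the members' share is near the background. The ATPase Smarca4 read 9.70 in tumor 2, against 9.44, 9.44 and 9.45 in tumors 1, 4 and 5. The H3K4 demethylase Kdm5b read 7.55 in tumor 1, against 7.03, 6.93 and 7.01 in tumors 2, 4 and 5. The PBAF subunit Brd7 read 8.51 in tumor 1, against 8.82, 8.85 and 8.83. The H3K9 and H3K36 demethylase Kdm4a read 7.49 in tumor 4, against 7.74, 7.75 and 7.73 in tumors 1, 2 and 5. In tumor 2, Brd2, a BET reader of acetylated histones, read 9.28, against 9.42, 9.43 and 9.44 in tumors 1, 4 and 5, and Mllt10 (AF10), a partner of the H3K79 methyltransferase Dot1l, read 8.38, against 8.49, 8.49 and 8.50. None of these 6 passed limma's test in its tumor.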

How the results depend on the processing

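No paired analysis was possible because there was 1 group. Under the alternatives 89 counts and medians of the members moved by less than their spread or by less than 1.5 times and 5 moved by more. The counts of members that passed in tumors 2, 4 and 5 began at 0, so their staying there was likely in advance. The single members followed were the 6 of largest difference per tumor in these same data. All but Mllt11 in tumor 1 did not pass at the start. Keeping direction and side of the threshold was thus likely in advance. Of the differences of single members 249 kept their direction and their side of the threshold, 2 passed newly and 2 no longer passed. The number of members that passed in tumor 1, 1 as reported, was 0 with the floor at the 50th percentile and 0 with no filter on the mean, where Mllt11 had an adjusted p of 0.0503 and 0.141 (limma; 0.00097 to 0.141 over all alternatives). With a tumor left out it was 1 to 2, the added gene without tumor 2 being Kdm6a (difference 1.01, adjusted p = 0.00908). In tumor 2, where 0 members passed, leaving out a tumor gave 0 to 1, again Kdm6a, without tumor 1 (difference 1.07, adjusted p = 0.0133, limma). Leaving out a tumor leaves 1 against 2, with the lone tumor assumed to vary like the others. For Kdm6a the tumor left out was the only other at the same level, so its passing follows from that choice. The median SD of the members, 0.16, was 0.13 to 0.18 with a tumor left out. Their median difference in tumor 1, 0.03, was -0.0036 to 0.06. Over all genes the 110 calls in tumor 1 were 57 with the floor at the 50th percentile, 29 with the filter at the 75th percentile and 177 to 208 with a tumor left out. For tumors 2, 4 and 5, with 0 calls, leaving out a tumor gave 0 to 29, 1 to 7 and 1 to 47 calls, and no filter on the mean 1, 5 and 6. Weak signal limits the 9 members under the filter, which were not tested.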
